A study of Mus musculus with 10 samples.

Results

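The genes described here repair damaged DNA or stop the cell cycle while damage is present. They were chosen by symbol from a list of 44 genes, and 43 of these had a row in the table of 22329 genes. Fanca is not analysed here. Their transcripts were measured by RNA sequencing in 10 tumours of B16F10, a mouse melanoma cell line that was grown under the skin of C57BL6/J mice. Each tumour received 1 injection of 80 µg of mRNA and was taken 7 days later. In 5 control tumours (libraries 1 to 5) the mRNA encoded luciferase. In 5 cytokine mRNA tumours (libraries 6 to 10) it was a mixture of 4 mRNAs, 20 µg each, for GM-CSF, IFNalpha, IL-15sushi and IL-12 single chain. All tumours derive from 1 cell line; the labels do not say whether each came from its own mouse, so p-values measure the spread between these tumours. The age of the mice is not given. Values are TPM, a share of the library's transcripts that is corrected for gene length and scaled to 1000000, so levels can be compared between genes. The depth of the libraries is unknown.

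Cells mend DNA by routes that differ in their template and their timing. Homologous recombination copies the missing stretch from the sister chromatid. It therefore works during and after DNA replication, and the Fanconi anaemia proteins hand crosslinks that block replication forks to it. Non-homologous end joining seals broken ends without a template at any stage of the cycle, mismatch repair corrects copying errors, and single-strand break repair closes nicks. The kinases ATM and ATR sense breaks and stalled forks, and signal through CHK2 and CHK1 to halt division. Many genes of the replication-linked routes are known to be transcribed mainly in dividing cells.

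Of the 43 genes, 9 were lower in the cytokine mRNA tumours and 0 were higher by limma at an adjusted p under 0.05, and all 43 had passed the filter on low values. The 9 were Chek1, Rad51ap1, Xrcc2, Exo1, Fanci, Rad50, Rad54l, Fancc and Topbp1. They make up 20.9% of the members, beside a background of 3.02% of the 12497 genes tested that were lower and 7.41% that were higher. At an unadjusted p under 0.05, 19 of the 43 members were lower and 0 were higher, beside 16.1% and 14.4% of all genes tested. The median change of the members was -0.71 on the log2(TPM + 1) scale, against -0.18 over all genes tested, and 39 of the 43 had a negative change. In 8 members all 5 cytokine mRNA tumours lay below all 5 controls, which was so for 3.78% of all genes tested. In bulk tumours, fewer cells of a type and less RNA per cell cannot be told apart.

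The count of 9 changed whichever library was omitted. In the full fit the limma adjusted p of the 9 ran from 0.0213 to 0.0494, and a fit without a library has fewer tumours. The count was 2 without control library 1 (Rad51ap1 and Chek1), and 1 without library 2 or 3 (Chek1), 4 (Fancc) or 5 (Rad54l). It was 0 without library 6 or 8, 5 without library 7 (Fancc, Fanci, Rad51ap1, Rad50 and Chek1) and 4 without library 9 (Fancc, Rad51ap1, Xrcc2 and Chek1). Without cytokine library 10 it was 17, or 39.5% of the members beside 12.8% of all genes, and without libraries 6 and 7 together it was 0. At an unadjusted p, 15 to 23 members were lower when 1 library was omitted, beside 11.2 to 22.9% of all genes. The size of the fall varied less than the count of calls: the members' median change was -0.73 without library 6, -0.78 without library 8, -0.55 without library 7 and -0.94 without library 10. Without libraries 6 and 7 together it was -0.42, against -0.03 over all genes. Across all genes the share called lower moved as well, from 0.368% without library 6 to 12.8% without library 10.

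**Figure D1:**
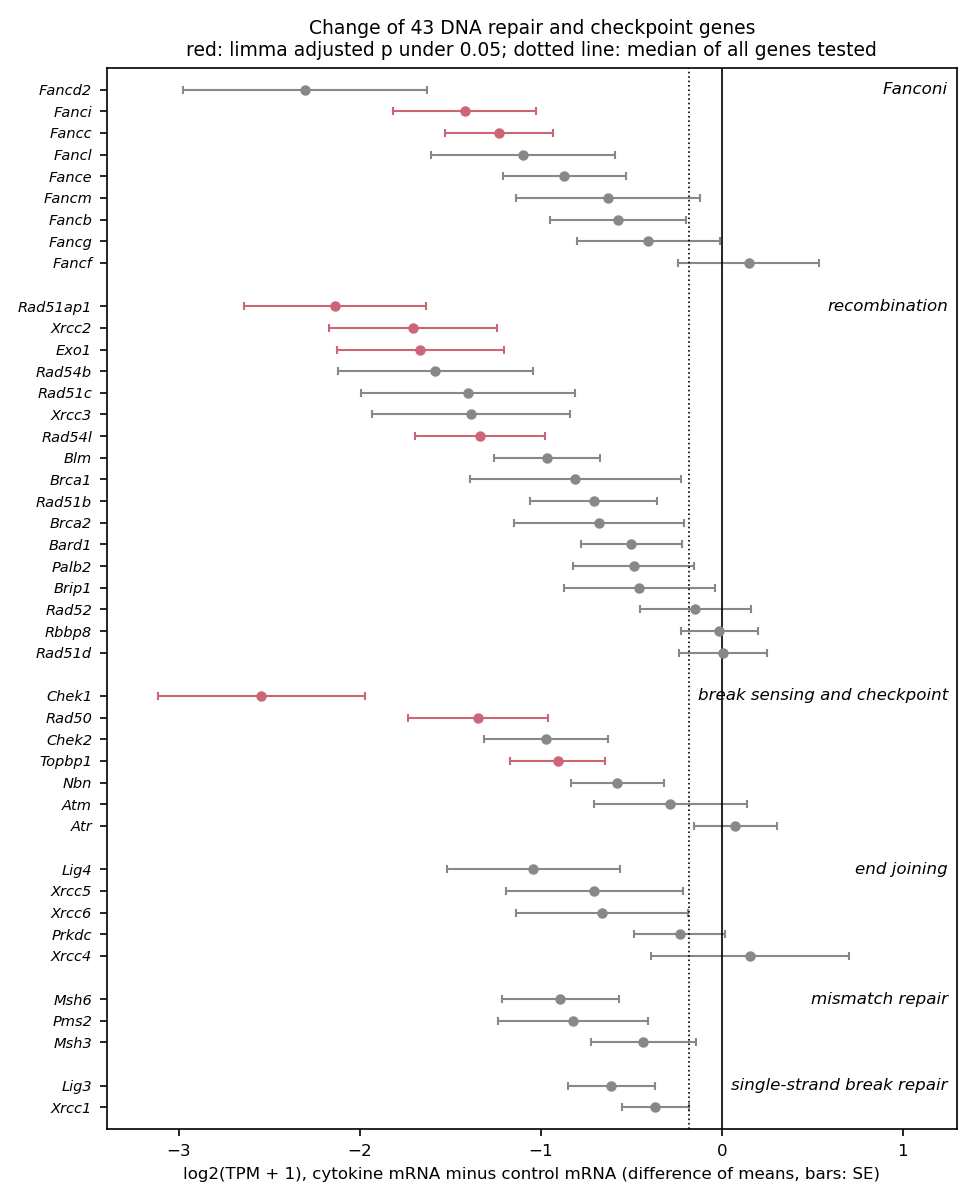
Difference between cytokine mRNA and control mRNA tumours for 43 repair and checkpoint genes, on the log2(TPM + 1) scale (x axis), grouped by role (y axis). Points are differences of means and bars are SE; the 9 red genes had a limma adjusted p under 0.05, and the dotted line marks the median of all genes tested, -0.18. Chek1 lies farthest to the left at -2.54, and Rbbp8, Rad51d, Atr, Fancf and Xrcc4 lie near or right of 0.

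The promoter windows of 4 genes are shown because their genes moved to different degrees. They hold 250 bases before and 50 bases after the start site, from RefSeq on GRCm38.p6. Capitals mark letters typical of cell cycle promoters: the E2F-type words TTTGGCGC, TTTCCCGC, TTTCGCGC and TTTGCCGC, the word CCAAT, and GGCGGGAA, a further E2F-type word that was added after the windows were seen. All were searched on both strands, and overlapping matches were allowed. Chek1 and Rad51ap1 had the largest falls among the 9 called genes. Topbp1 had the smallest, and Msh3 did not pass the test. The windows are chr9:36726609-36726908 (minus strand) for Chek1, chr6:126939538-126939837 (minus) for Rad51ap1, chr9:103305077-103305376 (plus) for Topbp1 and chr13:92354954-92355253 (minus) for Msh3.
Chek1: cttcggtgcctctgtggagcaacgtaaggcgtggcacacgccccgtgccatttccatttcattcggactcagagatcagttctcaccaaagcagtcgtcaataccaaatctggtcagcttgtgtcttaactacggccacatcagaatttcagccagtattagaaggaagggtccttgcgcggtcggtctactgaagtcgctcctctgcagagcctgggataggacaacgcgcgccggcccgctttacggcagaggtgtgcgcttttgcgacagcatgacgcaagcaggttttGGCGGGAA
Rad51ap1: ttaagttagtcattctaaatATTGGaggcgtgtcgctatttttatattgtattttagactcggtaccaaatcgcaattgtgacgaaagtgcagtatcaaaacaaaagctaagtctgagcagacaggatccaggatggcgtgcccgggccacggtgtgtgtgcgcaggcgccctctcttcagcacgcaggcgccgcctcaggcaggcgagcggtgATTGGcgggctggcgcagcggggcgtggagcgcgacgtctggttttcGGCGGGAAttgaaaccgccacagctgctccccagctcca
Topbp1: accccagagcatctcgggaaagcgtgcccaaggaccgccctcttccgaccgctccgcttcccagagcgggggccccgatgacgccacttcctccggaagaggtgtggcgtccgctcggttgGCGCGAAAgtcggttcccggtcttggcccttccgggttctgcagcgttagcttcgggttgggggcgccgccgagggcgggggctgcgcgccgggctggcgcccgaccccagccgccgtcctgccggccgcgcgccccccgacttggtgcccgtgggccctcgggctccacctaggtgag
Msh3: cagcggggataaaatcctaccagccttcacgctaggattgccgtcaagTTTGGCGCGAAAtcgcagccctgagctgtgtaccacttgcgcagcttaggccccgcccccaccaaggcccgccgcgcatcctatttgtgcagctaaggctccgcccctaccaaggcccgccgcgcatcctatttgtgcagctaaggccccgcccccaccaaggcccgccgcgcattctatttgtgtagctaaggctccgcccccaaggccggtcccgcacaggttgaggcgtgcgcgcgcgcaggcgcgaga
The window of Chek1 held GGCGGGAA 43 bases after the start site. That of Rad51ap1 held the same word at 12 bases after it. It also held ATTGG, the reverse complement of CCAAT, 36 bases and 230 bases before the start site. Topbp1 held GCGCGAAA, the reverse complement of TTTCGCGC, 129 bases before its start, and in Msh3 TTTGGCGC and GCGCGAAA overlapped.

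Over all roles, 38 windows matched 34 of the members. An E2F-type word of the first 4 stood in 10 of them (26.3%), against 2.26% of the 32851 windows in the table. CCAAT stood in 22 (57.9%, against 37.4%), GGCGGGAA in 6 (15.8%, against 2.19%) and TTTGAA or TTCGAA in 3 (7.89%, against 19.2%). Because GGCGGGAA was added after windows of members were seen, its share among them is not an independent comparison. The windows of the table cover 27025 genes, not only the 12497 tested. They were not matched to the windows of members for base composition, so the shares are a description only. Among the windows of called members, 1 of 7 held a word of the first 4 and 2 of 7 held GGCGGGAA. Among those of members that were not called, 9 of 31 and 4 of 31 did. The windows of end joining and mismatch members held a word of the first 4 in 3 of 8, and those of Fanconi and recombination members in 5 of 23. Some genes have several windows that overlap. A match describes the letters and is not a bound site.

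Of the 9 Fanconi genes measured, 2 fell, beside 3.02% of all genes tested, and the other 7 did not pass the limma test. Fanci encodes a partner of FANCD2 in the clamp that marks a blocked fork. It was at 12.2, 18.9, 11.2, 13.6 and 9.85 TPM in control libraries 1 to 5, and at 4.98, 0.985, 5.42, 3.84 and 8.90 TPM in cytokine libraries 6 to 10. All cytokine mRNA tumours lay below all controls, with library 7 lowest and library 10 closest to them. Fanci fell from 13.1 ± 3.48 to 4.83 ± 2.86 TPM (SD, n = 5 per group), and its log2 change was -1.42 ± 0.40 (SE; limma adjusted p = 0.0430).

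Fancc, a subunit of the core complex that attaches ubiquitin to the clamp, was at 15.5, 18.0, 15.8, 10.5 and 11.3 TPM in the controls and at 6.85, 7.38, 2.92, 7.60 and 3.75 TPM in cytokine libraries 6 to 10. These groups did not overlap either, and library 10 was the second lowest of its group here. The log2 change of Fancc was -1.23 ± 0.30 (SE; limma adjusted p = 0.0275). Fancd2, which encodes the other subunit of the clamp, was at 78.9, 38.9, 39.2, 51.6 and 38.4 TPM in the controls and at 6.54, 0.831, 6.69, 20.9 and 38.2 TPM in libraries 6 to 10. Its groups were kept apart by library 10 lying just under the lowest control, and its change of -2.30 ± 0.67 missed the threshold (limma adjusted p = 0.0514). Without library 10 that p was 0.00695.

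Other subunits of the core complex differed among themselves. Fance, which links the core complex to FANCD2, did not overlap between groups (25.4 to 40.5 TPM in controls, 6.05 to 24.1 TPM in cytokine mRNA tumours), with a limma adjusted p = 0.112. Fancl, the ubiquitin ligase subunit, was at 22.6 ± 10.9 and 11.2 ± 6.37 TPM, and the fork helicase gene Fancm at 33.3 ± 18.4 and 20.9 ± 12.8 TPM. Fancg had 15.5 ± 4.03 and 12.6 ± 5.64 TPM, and 4 of its 5 cytokine values lay within the control range. Fancb and Fancf were the lowest members of all, with control means of 2.72 and 2.71 TPM and cytokine means of 1.45 and 3.13 TPM. None of these 6 passed the test, with limma adjusted p from 0.112 to 0.817.

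**Figure D2:**
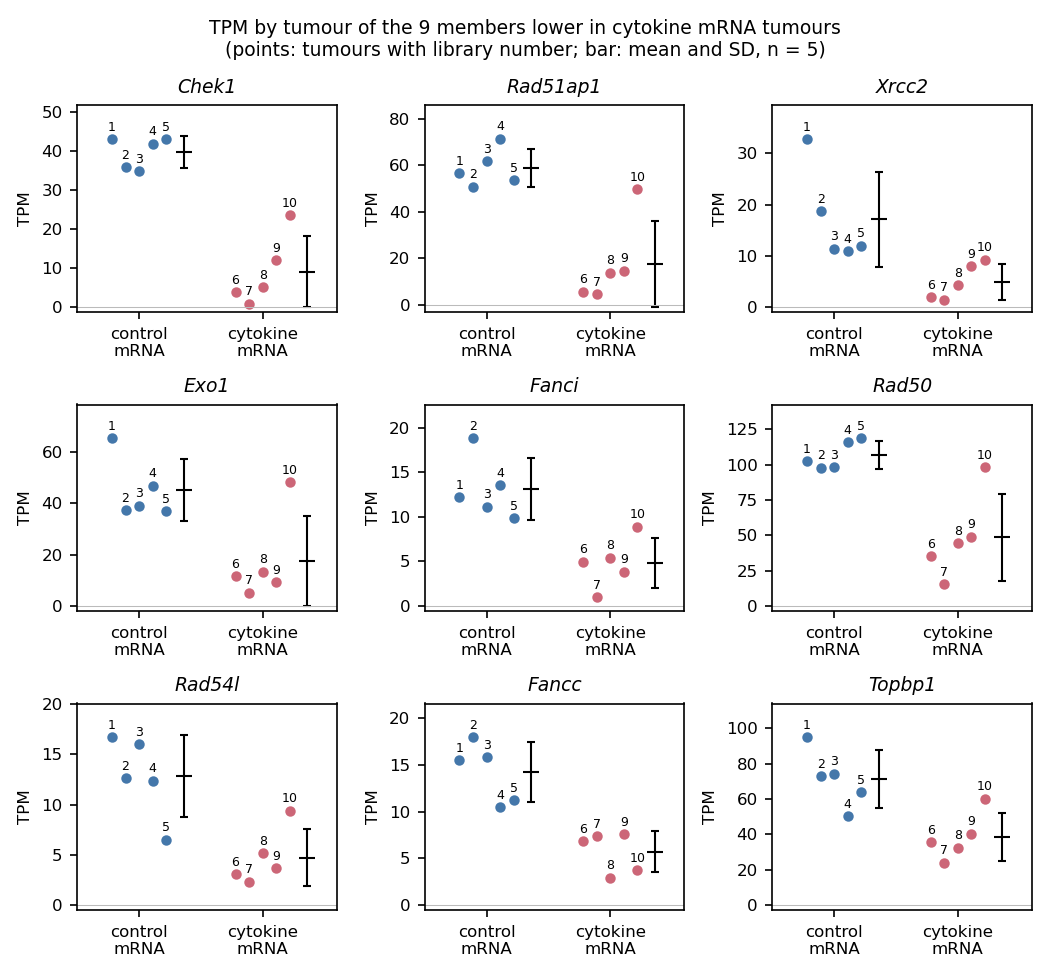
TPM (y axis) in each tumour for the 9 genes called lower, with control mRNA tumours in blue and cytokine mRNA tumours in red. Numbers are libraries, and black bars are mean and SD (n = 5 per group). In Rad50, Exo1, Topbp1 and Rad54l library 10 lies within the control range, while libraries 6 to 9 lie below it.

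Of the 17 recombination genes, 4 fell, beside 3.02% of all genes tested, and the other 13 did not pass. Rad51ap1 encodes a protein that promotes strand invasion during recombination. It was at 56.7, 50.9, 61.8, 71.5 and 53.7 TPM in the controls, and at 5.74, 4.63, 13.9, 14.7 and 49.9 TPM in cytokine libraries 6 to 10. Libraries 6 to 9 lay far under the controls, and library 10 just under the lowest of them. The mean of Rad51ap1 was 58.9 ± 8.10 TPM in controls and 17.8 ± 18.5 TPM in cytokine mRNA tumours, or 9.74 TPM when library 10 was omitted, and its log2 change was -2.14 ± 0.50 (SE; limma adjusted p = 0.0250).

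Exo1, the nuclease that resects broken ends and also serves mismatch repair, was at 65.4, 37.3, 39.0, 46.8 and 36.9 TPM in the controls and at 11.7, 5.15, 13.4, 9.34 and 48.2 TPM in libraries 6 to 10. Library 10 exceeded 4 of the 5 controls, and the other cytokine mRNA tumours lay below all of them. Its log2 change was -1.67 ± 0.46 (SE; limma adjusted p = 0.0432), and its cytokine mean of 17.6 TPM was 9.92 TPM without library 10. Xrcc2, which acts in strand exchange, was at 32.8, 18.7, 11.4, 10.9 and 11.97 TPM in the controls and at 1.91, 1.43, 4.31, 7.92 and 9.25 TPM in libraries 6 to 10. Its groups did not overlap, control library 1 stood highest, and its change was -1.71 ± 0.47 (limma adjusted p = 0.0405). Rad54l, a DNA motor protein of strand exchange, was at 16.7, 12.6, 16.0, 12.4 and 6.51 TPM in the controls and at 3.06, 2.33, 5.19, 3.63 and 9.40 TPM in libraries 6 to 10. Library 10 lay above control library 5, and the change was -1.34 ± 0.36 (limma adjusted p = 0.0389).

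Xrcc3, Rad51b, Rad51c and Rad51d, which take part in strand exchange, had unlike values. Xrcc3 was at 19.5 ± 4.61 and 9.71 ± 9.30 TPM (limma adjusted p = 0.117), with libraries 6 to 9 below all controls and library 10, at 24.0 TPM, within their range. Rad51c was listed at 0 in libraries 6 and 7, and was at 3.04, 4.66 and 6.42 TPM in libraries 8 to 10 and at 4.22 to 11.2 TPM in the controls. Rad51b was at 6.77 ± 3.12 and 3.71 ± 1.91 TPM. Rad51d was at 12.8 ± 3.57 and 12.6 ± 2.11 TPM, and each of its 5 cytokine values lay within the control range (limma adjusted p = 0.985). These 4 genes were not called.

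Other recombination genes near the threshold were Rad54b, a relative of Rad54l, with a change of -1.58 ± 0.54 (SE; limma adjusted p = 0.0793), and Blm. Blm encodes the helicase lost in Bloom syndrome, and had 35.4 ± 9.07 and 18.4 ± 8.57 TPM (limma adjusted p = 0.0585). Libraries 6 to 9 were at 12.4 to 17.1 TPM of Blm, under the lowest control of 23.1 TPM, and library 10 was at 33.3 TPM. The BRCA group, which prepares resected ends for strand exchange, had smaller differences with wide spread. Brca1 was at 20.8, 39.0, 42.8, 36.1 and 36.9 TPM in the controls and at 15.1, 3.17, 20.2, 45.4 and 48.2 TPM in libraries 6 to 10. Its cytokine mRNA tumours thus lay on both sides of the control range (limma adjusted p = 0.355).

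Brca2 had means of 36.9 and 26.9 TPM, and Bard1, the partner of BRCA1, of 14.5 and 10.3 TPM. Palb2, which joins BRCA1 to BRCA2, had means of 13.1 and 8.84 TPM, and the helicase gene Brip1 of 32.3 and 26.0 TPM. Rad52, which anneals single strands, was at 25.4 ± 8.26 and 23.5 ± 8.91 TPM. Rbbp8, whose product CtIP starts end resection, was at 12.7 ± 2.41 and 12.5 ± 1.57 TPM, and all 5 of its cytokine values lay within the control range. None of these passed, with limma adjusted p from 0.240 in Bard1 to 0.973 in Rbbp8.

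Of the 7 genes of break sensing and the checkpoint, 3 fell, beside 3.02% of all genes tested, and the other 4 did not pass. Chek1, the kinase that ATR activates at stalled forks, had the largest change of all members. It was at 43.1, 35.8, 34.8, 41.9 and 43.1 TPM in the controls, and at 3.79, 0.756, 5.07, 11.97 and 23.5 TPM in cytokine libraries 6 to 10. The controls were close together, and each cytokine mRNA tumour lay below all of them. The control mean was 4.40 times the cytokine mean, and the log2 change was -2.54 ± 0.57 (SE; limma adjusted p = 0.0213). When each of the 10 libraries was omitted in turn, Chek1 passed 6 times, the most of any member, and its limma adjusted p was at most 0.0612.

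Rad50, the tether of the complex that binds broken ends, was the most abundant member, at 103, 98.0, 98.2, 116 and 119 TPM in the controls. In libraries 6 to 10 Rad50 was at 35.4, 15.2, 44.5, 49.1 and 98.3 TPM, so that library 10 lay within the control range. The change was -1.35 ± 0.38 (SE; limma adjusted p = 0.0471), and the cytokine mean of 48.5 TPM was 36.1 TPM without library 10. Nbn, another subunit of that complex, was at 26.9 to 33.7 TPM in the controls and 9.70 to 23.9 TPM in the cytokine mRNA tumours. Its groups did not overlap, yet it missed the threshold (change of -0.58 ± 0.26, limma adjusted p = 0.157). Topbp1, which switches on ATR, was at 95.0, 73.0, 74.3, 50.4 and 63.8 TPM in the controls and at 35.5, 23.9, 32.5, 40.3 and 60.2 TPM in libraries 6 to 10. Library 10 lay above control library 4, and the change was -0.91 ± 0.26 (limma adjusted p = 0.0494).

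The sensor kinases themselves were not called. Atr was at 34.1, 32.0, 35.9, 34.3 and 27.1 TPM in the controls and at 40.8, 20.8, 32.6, 38.5 and 44.5 TPM in libraries 6 to 10. In 3 cytokine mRNA tumours Atr lay above all controls and in library 7 below them (limma adjusted p = 0.842). Atm was at 31.5 ± 8.43 and 28.9 ± 14.0 TPM, and only library 7, at 7.24 TPM, fell outside the control range. Chek2, the kinase downstream of ATM, was at 35.6 ± 13.0 and 17.9 ± 7.40 TPM (limma adjusted p = 0.0867).

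Levels within a tumour can be set against each other, for pairs chosen after their values were seen. The log2(TPM + 1) of Chek1 minus that of Atr ranged from -0.05 to 0.65 in the controls and from -3.64 to -0.89 in the cytokine mRNA tumours. For Chek1 minus Chek2 the ranges were -0.54 to 1.10 and -2.67 to -0.18, which overlapped. For Rad50 minus Nbn the controls ranged from 1.51 to 2.05, libraries 6 to 9 were at 0.55, 0.60, 1.17 and 1.06, and library 10 was at 2.02.

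Among the 5 end joining genes, none was called in either direction by limma, and none had an unadjusted p under 0.05. At the shares of all genes that were lower, 3.02% and 16.1%, a list this short can hold none. Xrcc6, which encodes the KU70 ring that caps broken ends, was at 90.4, 85.5, 37.9, 84.6 and 50.7 TPM in the controls and at 55.4, 10.7, 56.1, 45.2 and 78.1 TPM in libraries 6 to 10. Apart from library 7, its cytokine mRNA tumours lay within the control range (limma adjusted p = 0.354). Its partner Xrcc5 (KU80) was at 29.3, 26.1, 27.6, 34.4 and 32.3 TPM in the controls and at 28.0, 3.45, 16.8, 30.5 and 32.3 TPM in libraries 6 to 10. Libraries 7 and 8 lay below the controls and the other 3 within their range (limma adjusted p = 0.336). Without library 7 the cytokine means of Xrcc6 and Xrcc5 were 58.7 and 26.9 TPM, against control means of 69.8 and 29.9 TPM. The ligase gene Lig4 was at 13.9 ± 2.01 and 7.86 ± 5.58 TPM, with libraries 6 to 9 below and library 10 above all controls (limma adjusted p = 0.165, and 0.0449 without library 10). Its scaffold partner Xrcc4 was at 14.2 ± 8.70 and 17.6 ± 13.4 TPM. Prkdc, the kinase held by the KU ring, was at 8.45 ± 1.78 and 7.12 ± 1.86 TPM.

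Among the 3 mismatch repair genes none was called, and Msh6 alone had an unadjusted p under 0.05. Over all genes tested the shares that were lower were 3.02% and 16.1%. Msh6, part of the sensor of single-base mismatches, was at 15.8, 20.9, 17.4, 23.3 and 17.8 TPM in the controls and at 12.3, 4.33, 8.48, 9.88 and 18.2 TPM in libraries 6 to 10. Libraries 6 to 9 lay below all controls and library 10 within their range, with a change of -0.89 ± 0.32 (SE; limma adjusted p = 0.0908, and 0.0205 without library 10). Pms2, of the complex that nicks the faulty strand, was at 37.1, 14.6, 25.2, 10.8 and 34.0 TPM in the controls and at 9.01, 5.44, 15.6, 17.3 and 17.8 TPM in libraries 6 to 10. Its controls spread widely, and 3 cytokine mRNA tumours lay within their range (limma adjusted p = 0.196). Msh3, which senses larger loops, was at 18.7 ± 5.23 and 13.8 ± 4.67 TPM.

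Neither gene of single-strand break repair was called by limma, beside 3.02% of all genes that were lower, and Lig3 had an unadjusted p of 0.0259. The scaffold gene Xrcc1 was at 44.2, 46.7, 58.6, 47.4 and 42.7 TPM in the controls and at 32.3, 46.1, 33.1, 33.5 and 40.3 TPM in libraries 6 to 10. Library 7 lay within the control range here and the other 4 below it, a pattern unlike that of most members (limma adjusted p = 0.198). The ligase gene Lig3 was at 54.0, 43.3, 47.9, 40.3 and 58.4 TPM in the controls and at 37.6, 19.3, 36.7, 27.1 and 41.5 TPM in libraries 6 to 10. Only library 10 reached the control range (limma adjusted p = 0.114).

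**Figure D3:**
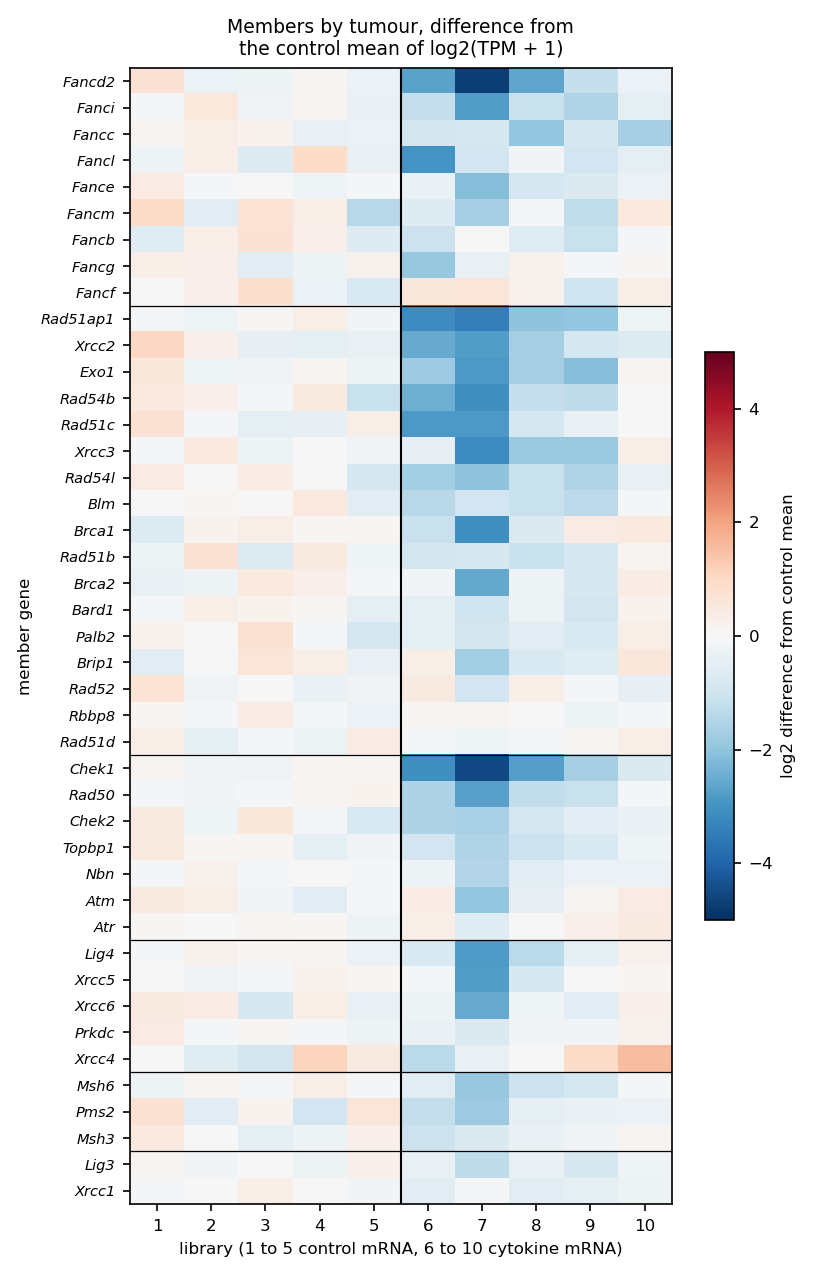
Each row is a member, ordered by role and change, and each column a library. Colour gives the difference of log2(TPM + 1) from the mean of the 5 controls, blue for lower and red for higher. The column of library 7 is the darkest blue. In the column of library 10, 29 of 43 members lie within the control range, beside 71 of 96 other repair genes.

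The replication-linked routes were set against end joining and mismatch repair. Of 26 Fanconi and recombination genes 6 were lower, and of 8 end joining and mismatch genes none was lower by limma. Over all genes tested 3.02% were lower, and none of 8 is near that share. At an unadjusted p under 0.05 the counts were 12 and 1, beside 16.1% of all genes. The mean log2(TPM + 1) of the replication-linked genes was 4.40, 4.31, 4.30, 4.29 and 3.89 in control libraries 1 to 5, and 3.09, 2.50, 3.41, 3.33 and 4.18 in cytokine libraries 6 to 10. That of the end joining and mismatch genes was 4.58, 4.27, 4.11, 4.46 and 4.42 in the controls, and 3.67, 2.65, 3.82, 4.18 and 4.63 in libraries 6 to 10. In both lists library 7 was lowest and library 10 lay within or above the control range.

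The differences between group means were -0.94 for the replication-linked genes and -0.58 for the end joining and mismatch genes. Without library 7 they were -0.74 and -0.30, without library 10 they were -1.16 and -0.79, and without libraries 6 and 7 together they were -0.60 and -0.16. The replication-linked mean minus the other mean was -0.13 ± 0.27 in controls and -0.49 ± 0.25 in cytokine mRNA tumours (SD, n = 5), a difference of -0.36, or -0.16 with the median of each list in place of its mean. The ranges of that value, -0.53 to 0.19 and -0.85 to -0.15, overlapped. These list means describe the tumours and carry no test. The counts therefore do not show that the routes differed.

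**Figure D4:**
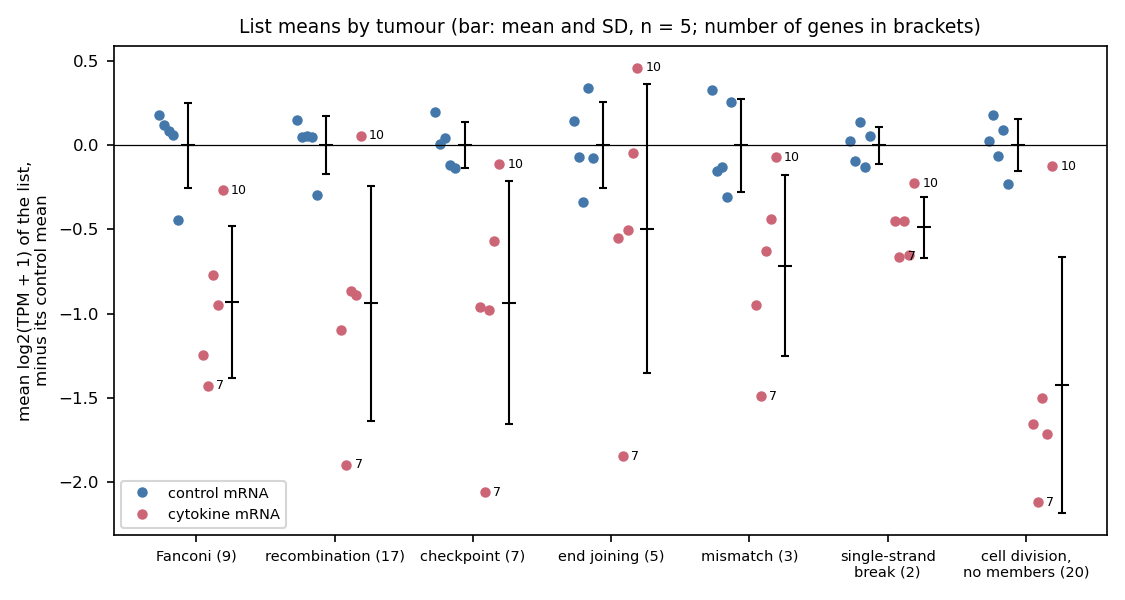
Mean log2(TPM + 1) of each list in each tumour, minus the control mean of that list (y axis), for 6 roles of members and for 20 cell division genes outside repair. Points are tumours, black bars are mean and SD (n = 5 per group), and libraries 7 and 10 are numbered. Library 10 lies within or above the control range in every list drawn except that of single-strand break repair, and library 7 is the lowest tumour in all 7 lists.

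The members moved with other properties of the tumours. Of 20 cell division genes outside repair, 13 fell, Mki67 among them, and 0 rose, beside 3.02% and 7.41% of all genes tested. The median change of the 20 was -1.39. Their list mean was 5.83 to 6.24 in the controls, 3.94 to 4.56 in libraries 6 to 9 and 5.93 in library 10. The replication-linked mean minus this mean was -1.94 to -1.69 in the controls, -1.32, -1.44, -1.15 and -1.02 in libraries 6 to 9, and -1.75 in library 10. The cell division genes thus differed more between the groups than the replication-linked repair genes did in libraries 6 to 9. Of 11 reference genes 9 had a negative change, none of them called. B2m, the light chain of MHC class I and known to be induced by interferon, rose from 9798 ± 3536 to 40512 ± 17535 TPM (limma adjusted p = 0.0230). The mean of all members minus that of the 11 reference genes differed by -0.48 between the groups, and by -0.25 when B2m was omitted, a choice made after its values were seen. Without B2m the groups overlapped, at -3.71 to -3.26 in the controls and -3.86 to -3.55 in the cytokine mRNA tumours, and the 10 reference genes themselves had a mean change of -0.60.

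Markers of immune cells moved the other way. Of 10 T cell markers 8 were tested and 7 rose, beside 7.41% of all genes tested that were higher. The summed level of the 10 was 3.83 to 47.5 TPM in the controls and 64.3 to 3703 TPM in the cytokine mRNA tumours. Among the latter it was lowest in library 10 and highest in library 7. Of 10 macrophage and monocyte markers 8 rose, beside the same 7.41%, from summed levels of 126 to 405 TPM to 633 to 14367 TPM. From 0 to 8 T cell markers were listed at 0 in a control tumour. Of 10 melanocyte markers none was called, and all 10 had a negative change, with a median of -1.86. Their sum was 16561 to 18648 TPM in control libraries 2 to 5 and 2699 TPM in control library 1, which stood apart. It was 6974, 44.2, 4589, 15954 and 19195 TPM in cytokine libraries 6 to 10, and 1 marker was listed at 0, in library 7. The markers did not all move together. Sox10 was at 532 TPM in control library 1 and at 320 to 369 TPM in the other controls. In cytokine library 8 Sox10 was at 334 TPM, within the control range. The sum is therefore not a measure of the share of tumour cells. B cell (2 tested of 5), endothelial (5) and fibroblast (5) markers had no called gene, with summed levels of 6.88 to 52.6, 69.5 to 99.6 and 76.5 to 1067 TPM in the controls and 14.9 to 210, 56.8 to 118 and 199 to 1184 TPM in the cytokine mRNA tumours. Mitochondrial genes took 16.2 to 27.9% of the TPM in controls and 4.44 to 19.2% in cytokine mRNA tumours. The part of these properties in the members' values was not tested.

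Library 10 lay within the control range in 29 of the 43 members, below it in 10 and above it in 4 (Brca1, Atr, Xrcc4 and Lig4). In the other repair genes it lay within that range in 71 of 96, and the share over all genes is not given here. The 29 include Rad51d and Rbbp8, in which all 5 cytokine values lay in the range, so the count alone does not set library 10 apart. In 19 members libraries 6 to 9 all lay below every control, which was so for 13.4% of all genes tested. Those below the range in library 10 included Fancc, Chek1 and Nbn.

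The other repair genes, fixed as lists by pathway, numbered 97, of which 96 were tested, 7 fell and 0 rose, with a median change of -0.49. Over all genes tested 3.02% were lower and 7.41% higher. At an unadjusted p under 0.05, 29 were lower and 2 were higher, beside 16.1% and 14.4% of all genes. Among the recombination genes of these lists, Fignl1 fell from 24.4 ± 7.95 to 9.10 ± 5.78 TPM (limma adjusted p = 0.0354). Of 16 checkpoint genes 2 fell. H2afx, the histone variant phosphorylated at breaks, fell from 229 ± 30.7 to 61.5 ± 85.3 TPM, with 210 TPM in library 10. Mdc1, the adaptor that binds it, fell from 51.3 ± 3.13 to 24.6 ± 10.6 TPM without overlap (limma adjusted p = 0.0225). Of 19 base excision genes 2 fell: the endonuclease gene Apex1, from 38.6 ± 7.67 to 18.1 ± 7.45 TPM, and the replication ligase gene Lig1, from 76.6 ± 14.5 to 37.8 ± 18.8 TPM. Of 7 translesion genes 1 fell, the polymerase gene Rev3l, from 32.2 ± 8.88 to 17.1 ± 2.95 TPM.

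None of the other Fanconi (9), end joining (5 tested), mismatch (4) and nucleotide excision (15) genes was called by limma. At an unadjusted p under 0.05, 1, 1, 2 and 1 of them were lower, and 1 end joining gene was higher. The shares over all genes were 16.1% and 14.4%. The most abundant of the Fanconi and nucleotide excision lists were Usp1, which removes ubiquitin from the Fanconi clamp (55.1 ± 9.01 and 34.2 ± 22.3 TPM), and Rad23b, a partner of the damage sensor XPC (301 ± 29.7 and 290 ± 72.7 TPM). The median change of the nucleotide excision list was -0.10, near the -0.18 of all genes.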

How the data were processed

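RNA was measured in 10 tumours, 5 per group, with 1 library each. Per the labels' protocols, polyA RNA was sequenced from stranded NuGEN libraries. The authors deposited 1 table of TPM, scaled to 1000000 per column. STAR and the build GRCh38 are named, per the submitters' processing notes; that build is human, although the symbols are mouse. Its version, the annotation and the counting program: not given in the sources used here. No coordinates come from the table. TPM keeps no counts, so depth is unknown and no counting interval can be given.

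Groups and library numbers come from the titles. The 12497 genes that reached 1 TPM in 5 or more libraries were compared on log2(TPM + 1) by limma 3.58.1 in R 4.3.3 (eBayes with a trend, 2-sided), with Benjamini-Hochberg adjustment over all genes tested. Fold changes on this scale understate those of low genes. On simulated data of 12497 genes with 200 changed, for this comparison, limma recovered 17% of those set to 2-fold, 52% of those set to 4-fold, and made 4 false calls. The simulation drew each gene independently, with the same SD in both groups. In the real tumours the SD of the members' mean was 0.14 in controls and 0.62 in cytokine mRNA tumours, and members moved together within a library. The false calls may therefore differ in these data.

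The members, roles, lists and tests were chosen with earlier results of these data known. Named are all members (each tumour's values for called members, or the 2 most abundant of a role with fewer than 2 called), up to 2 called genes of each other list (else its most abundant), and genes said to be chosen after their values were seen; some items that this rule selects are not reported here. Of the 44 symbols Fanca, and of the 97 other repair genes Paxx, had no row. Exons of 15 members overlap those of another gene in GENCODE M21, among them the called Fanci (with Polg) and Rad54l (with Lrrc41). Whether counting used strand is not stated, so reads of these pairs may be shared. Rad54b (with Fsbp, 2068 bases) and Pms2 (with Gm42421 and Rsph10b) overlap on the same strand, where strand would not separate the reads. Promoter windows are from RefSeq on GRCm38.p6. Alternatives were other pseudocounts, filters, scalings, variance priors, weights and thresholds, a rank test, and libraries left out.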

Additional observations from a re-analysis of the deposited data

Results flagged for a closer look

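Of 92 groups of 5 values checked (43 members and 3 list means in each group), 10 held a value whose gap to its neighbour exceeded 0.71 of the whole range. Chance flags about 5% of such groups if they are independent and normally distributed. These groups come from the same 10 libraries, in which members moved together, so the flags are not separate events. In the cytokine mRNA tumours all 5 flagged values were library 10, which stood above the other 4. It had 14.9 TPM of Palb2 (6.02 to 8.59 in the others), 7.08 TPM of Rad51b (2.37 to 3.14), 49.9 TPM of Rad51ap1 (4.63 to 14.7), 33.3 TPM of Blm (12.4 to 17.1) and 48.2 TPM of Exo1 (5.15 to 13.4). Among controls, library 1 stood above the rest in Fance (40.5 TPM, against 25.4 to 29.7) and Rad52 (39.8 TPM, against 19.5 to 24.6). Library 2 stood above the rest in Xrcc3 (27.5 TPM, against 16.0 to 18.9) and Nbn (33.7 TPM, against 26.9 to 28.4). The mean log2(TPM + 1) of the replication-linked genes was lowest in control library 5, at 3.89, against 4.29 to 4.40.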

How the results depend on the processing

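The count of 9 lower members was 0 with an exact rank test, which called 0 of all 12497 genes because its smallest p with 5 against 5 is 0.00794 and so says nothing of the members. It was 0 at an adjusted p under 0.01, which no gene passed lower, 16 with library quality weights, 3 with no filter on low values and 4 with a pseudocount of 0.1. It was 0 without libraries 6 and 7 together, 15 without libraries 7 and 10 together, and 0 to 17 with 1 library left out. For the 6 replication-linked genes these counts were 0, 0, 11, 2, 3, 0 and 10, and 0 to 11. For end joining and mismatch genes the count of 0 became 1 with library quality weights (Msh6), 2 without libraries 7 and 10 together and 0 to 2 with 1 library left out. No setting called a member higher. With the 4 other scalings the count was 9 to 12, the members' median change -0.91 to -0.57, and the median of all genes -0.37 to -0.03. The share of called genes that were higher was 71.0% and fell to 47.8% after rescaling without mitochondrial genes.

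The mean changes of the lists kept their direction in all settings and moved by less than the SD within groups, pooled over both, to which the wider cytokine mRNA group adds most. They ranged from -1.16 to -0.60 for replication-linked genes, from -0.79 to -0.16 for end joining and mismatch genes, and from -0.48 to -0.16 for their difference. The sign of 9 members that were not called changed. Without libraries 6 and 7 together the log2 change was -0.14 in Fancf, 0.078 in Fancg, 0.053 in Brca1 and 0.054 in Atm. Without libraries 7 and 10 together it was -0.064 in Fancf, -0.032 in Rad51d, 0.22 in Rad52, 0.035 in Atm and -0.13 in Xrcc4. With library quality weights it was -0.23 in Fancf and 0.15 in Rad52. Without mitochondrial genes it was -0.00027 in Fancf, -0.18 in Rad51d, -0.13 in Atr and -0.035 in Xrcc4, and without the 50 most abundant genes -0.086 in Rad51d and -0.022 in Atr. It was 0.015 in Rad52 and 0.15 in Rbbp8 with median-ratio scaling, and 0.057 in Rbbp8 with quantile normalization. With 1 library left out it ranged from -0.041 to 0.43 in Fancf, -0.10 to 0.11 in Rad51d, -0.29 to 0.057 in Rad52, -0.085 to 0.077 in Rbbp8, -0.46 to 0.13 in Atm, -0.016 to 0.25 in Atr and -0.19 to 0.53 in Xrcc4. The cause of these changes was not tested.

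No paired analysis was possible because the groups share no library number. Depth is unknown, so values near 0 TPM cannot be told from absence.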

Other observations

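Some genes outside the member list, chosen after their values were seen, went against the common direction. Wrn, the helicase gene of Werner syndrome, was higher in all 5 cytokine mRNA tumours than in any control (16.5 ± 3.88 and 27.0 ± 3.31 TPM, SD, n = 5; limma adjusted p = 0.0638), and library 10, at 22.3 TPM, was part of that shift. Dclre1c, the nuclease of end joining, was at 13.5 ± 2.31 and 30.5 ± 18.2 TPM (limma adjusted p = 0.0818). Nhej1, an end joining scaffold gene, was at 1495 TPM in control library 2 and 2105 TPM in cytokine library 7, and at 0 to 4.37 TPM in the other 8 tumours.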
